A study of Mus musculus with 12 samples.

Results

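The expression of 9 genes known for restraining T cell responses was followed in CD4+ T cells of healthy and lupus-prone mice given a tolerance-inducing antibody. The genes were Nt5e, Izumo1r, Cblb, Cbl, Rnf128, Itch, Dgka, Dgkz and Ndrg1. They were picked by name, and each was found among the 35275 genes of the expression table through the GENCODE M21 symbol of its Ensembl identifier. Levels are given in FPKM, the fragments of a gene per kilobase of its transcript, scaled to the mapped fragments of the library. All 9 were among the 13115 genes tested, those whose average across the 12 mice reached 0.5 FPKM, and Rnf128, the lowest of them in B6 mice, also reached it in each B6 group.

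T cell anergy is a state in which a T cell that has met antigen without costimulation stays alive but responds poorly when it meets the antigen again. Its known machinery includes E3 ubiquitin ligases, which tag signalling proteins downstream of the T cell receptor, and diacylglycerol kinases, which remove the lipid messenger that activates Ras and protein kinase C. CD73, encoded by Nt5e, and folate receptor 4, encoded by Izumo1r, are surface proteins found together on anergic CD4+ T cells and on regulatory T cells, and Izumo1r is also known from T follicular helper cells.

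Sequenced RNA came from the CD4+ T cells of 12 females, 3 per group in 4 groups, and each mouse gave 1 library. B6 mice were of the C57BL/6 strain, and SLE123 mice were of the B6.NZMSle1/Sle2/Sle3 strain, a B6 background with lupus-prone intervals on chromosomes 1, 4 and 7. Treated mice of either strain were given 100 µg of the anti-CD45RB antibody MB23G2 at each of 5 injections from day 0 to day 7, and untreated mice were left without it. The mice were 9 to 12 weeks old, and their CD4+ T cells were enriched by negative magnetic sorting. The methods also describe a split into CD25+ and CD25- cells, and no label names such a fraction. None of the 9 genes lies on chromosome 1, 4 or 7.

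The libraries held 13562933 to 23641603 fragments, so that 3 fragments on a transcript of 2000 bases corresponded to between 0.0634 and 0.111 FPKM. T cell markers were present in every library, with Cd3e at 274 to 401 FPKM and Cd4 at 237 to 327 FPKM. Immunoglobulin transcripts took 0.0895% to 0.336% of the fragments in B6 libraries and 2.51% to 12.2% in SLE123 libraries. The liver transcript Alb stood at 24.7 to 30.7 FPKM in the 6 B6 libraries and at 28.2 FPKM in treated SLE123 replicate 1, against 0 to 0.0296 FPKM in the other 5 SLE123 libraries. Treated SLE123 replicate 1 and the 3 untreated SLE123 libraries also differed more from their own group than other libraries did, with a chi-square per gene of 21.5 to 77 against 2.42 to 5.79. In such bulk samples, fewer cells of a type and less RNA per cell cannot be told apart.

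The mean levels of the 9 genes in untreated B6 mice ran from 0.798 to 655 FPKM. In untreated B6 mice the order was Dgka at 655 ± 9.24 FPKM (SD, n = 3), Dgkz at 174 ± 4.89, Izumo1r at 87.7 ± 9.41, Cbl at 37.1 ± 1.11, Cblb at 27.2 ± 1.7, Itch at 23.8 ± 1.78, Nt5e at 14.3 ± 1.43, Ndrg1 at 3.21 ± 0.462 and Rnf128 at 0.798 ± 0.258. No neighbours in that order overlapped. Treated B6 mice had the same order, with overlapping values for Cblb and Itch. In SLE123 mice Izumo1r took the second place and Nt5e the fourth, and Rnf128 stood above Ndrg1. In untreated SLE123 mice the values of Dgka and Izumo1r overlapped, as did those of Cblb and Itch and those of Itch and Cbl. The levels by mouse are plotted for each gene.

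**Figure D1:**
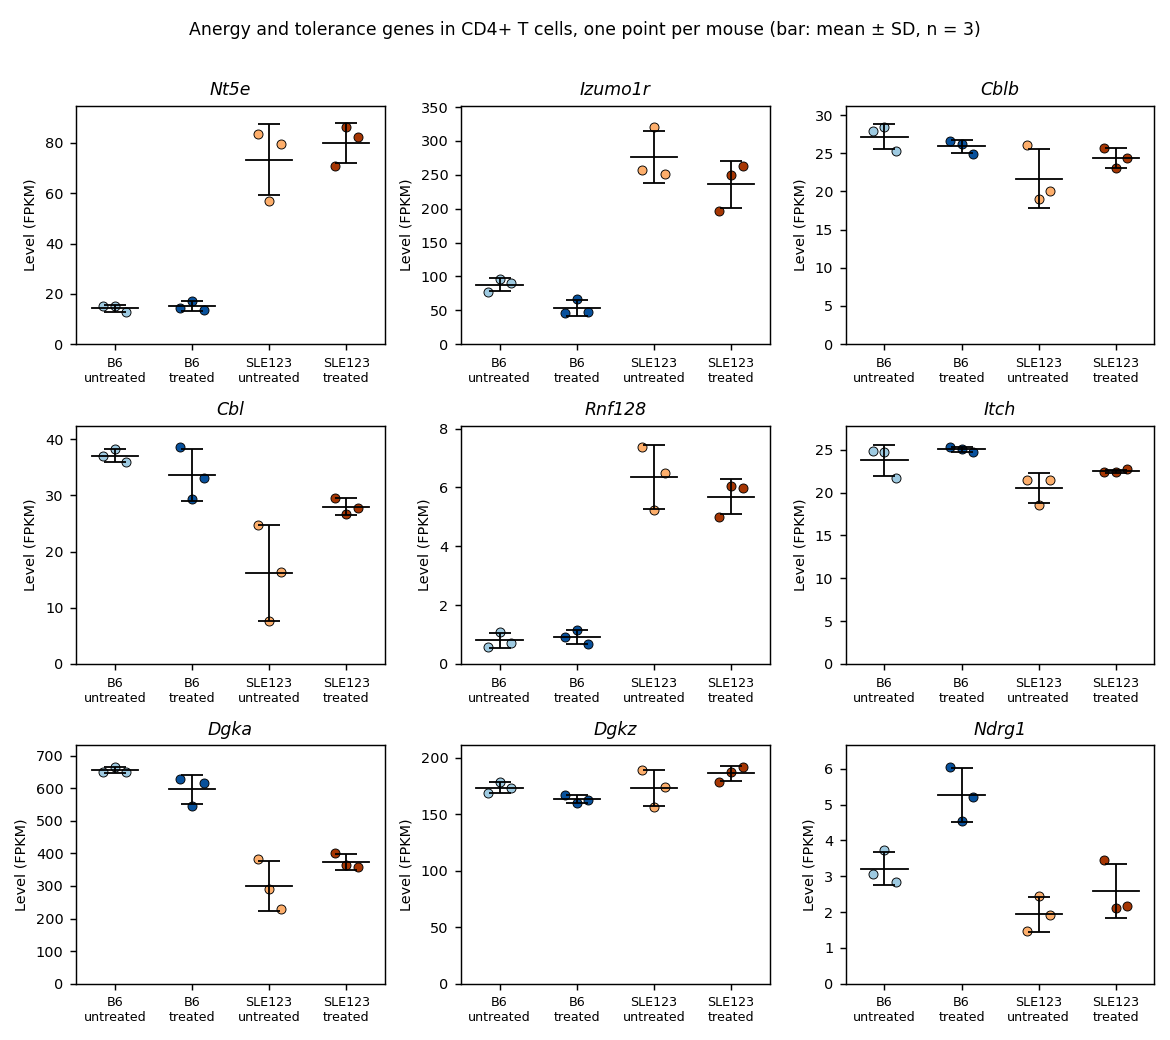
Level of each of the 9 genes in FPKM (vertical axes from 0, linear), with 1 point per mouse and a bar for the mean ± SD of 3 mice in each of the 4 groups. Nt5e, Izumo1r and Rnf128 sit higher in every SLE123 mouse than in any B6 mouse, Dgka sits lower in every SLE123 mouse, and Cbl spreads from 7.64 to 24.7 FPKM among untreated SLE123 mice.

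The genes themselves are protein coding and lie, in GRCm38 coordinates of GENCODE M21, at chr9:88327197-88372092 for Nt5e, chr9:14885814-14903949 for Izumo1r, chr16:52031225-52208048 for Cblb, chr9:44142976-44234049 for Cbl, chrX:139563316-139673145 for Rnf128, chr2:155133509-155226855 for Itch, chr10:128720134-128744855 for Dgka, chr2:91932824-91975864 for Dgkz and chr15:66929318-66969640 for Ndrg1. Nt5e, Izumo1r and Cbl thus share chromosome 9, and Itch and Dgkz share chromosome 2.

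Promoter sequence is shown for Izumo1r and Rnf128, which were higher in SLE123, and for Cbl, which was lower in untreated SLE123. RefSeq gave 11 promoter windows of 250 bases before a transcript start for 7 of the 9 genes, on GRCm38.p6. Each was searched on both strands for an EGR motif (GCGNGGGCG), an NFAT core (GGAAAA) and an AP-1 motif (TGANTCA), none of which contains another. The EGR motif was found in 1 window, that of Cbl (4.7% of 32851 promoters hold it), the NFAT core in 2, those of Rnf128 and of 1 Dgka transcript (20.4%), and AP-1 in 0 (6.75%). The sequences run 5′ to 3′ on the strand of the gene, with motif letters in capitals and bases inside annotated exons left out. They lie at chr9:14903950-14904017 (minus strand) for Izumo1r, chr9:44234050-44234296 (minus strand) for Cbl and chrX:139610370-139610619 (plus strand) for Rnf128, the last before an internal start of the gene. A match describes letters only.
Izumo1r: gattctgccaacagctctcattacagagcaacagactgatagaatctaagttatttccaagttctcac
Cbl: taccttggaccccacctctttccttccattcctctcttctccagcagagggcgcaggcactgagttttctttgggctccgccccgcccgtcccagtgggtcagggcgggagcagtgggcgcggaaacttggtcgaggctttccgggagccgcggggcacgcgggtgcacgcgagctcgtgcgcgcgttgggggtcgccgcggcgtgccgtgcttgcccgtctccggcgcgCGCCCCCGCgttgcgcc
Rnf128: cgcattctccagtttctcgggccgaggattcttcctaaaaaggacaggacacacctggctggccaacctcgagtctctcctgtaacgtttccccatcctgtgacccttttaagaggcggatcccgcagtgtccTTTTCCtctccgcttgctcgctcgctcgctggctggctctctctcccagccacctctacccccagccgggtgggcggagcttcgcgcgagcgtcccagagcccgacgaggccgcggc

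The first question was whether the strains differed in these genes before any treatment. In untreated mice Nt5e, Izumo1r and Rnf128 were higher in SLE123 and Cbl, Dgka and Ndrg1 were lower, so that 6 of 9 genes were called by limma at an adjusted p under 0.05. The same test called 42.9% of all genes, 22.8% higher and 20.1% lower. The values of the 2 strains did not overlap for 7 of the 9 genes, against 58.6% of all genes. The median log2 fold change of the 9 genes was -0.2, beside -0.03 for all genes tested.

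Among treated mice 7 of 9 genes were called between the strains, beside 52.1% of all genes. Nt5e, Izumo1r, Rnf128 and Dgkz were higher in SLE123 (29.6% of all genes were), and Itch, Dgka and Ndrg1 were lower (22.5% of all genes were). The groups did not overlap for 7 of the 9 genes, against 61.8% of all genes. The median log2 fold change was -0.08, beside 0.03 for all genes tested. The mice of these strain comparisons are also those of the treatment comparisons, so the results are not independent of each other.

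**Figure D2:**
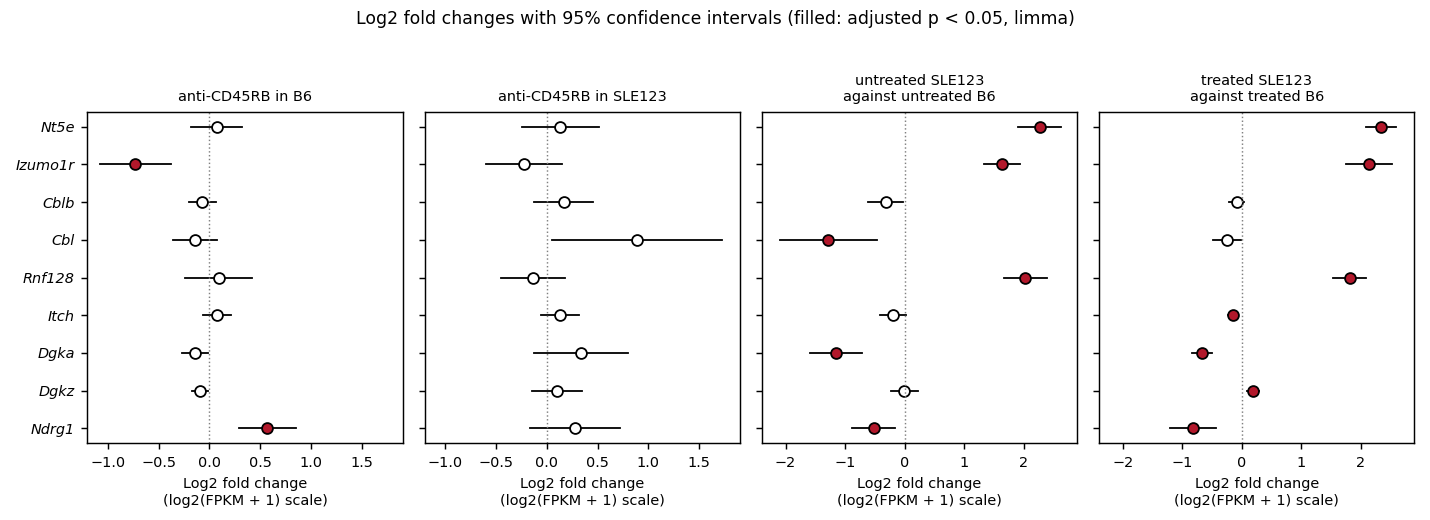
Log2 fold change (horizontal axes, log2(FPKM + 1) scale) of each of the 9 genes with its 95% confidence interval, in 4 comparisons of 3 mice with 3. Filled points have a limma adjusted p under 0.05, and the 2 treatment panels are drawn on a narrower axis than the 2 strain panels. Filled points number 2 for treatment in B6, 0 for treatment in SLE123, 6 between untreated strains and 7 between treated strains.

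Transcripts of both surface protein genes were higher in SLE123. Nt5e, which makes adenosine outside the cell from AMP, was measured at 15.1, 15.1 and 12.6 FPKM in untreated B6 mice and at 83.7, 57.1 and 79.4 FPKM in untreated SLE123 mice. After treatment it was at 14.4, 17.3 and 13.5 FPKM in B6 and at 70.9, 86.2 and 82.4 FPKM in SLE123. The lowest SLE123 mouse was thus above the highest B6 mouse by a wide margin in either condition. The log2 fold change between the strains was 2.27 (SE 0.153) in untreated mice, a ratio of means of 5.14 with a limma adjusted p of 5.44e-05, and 2.34 (SE 0.106) in treated mice, with an adjusted p of 2.37e-05. Nt5e ranked at the 97.2 percentile of all fold changes between untreated strains and at the 98.1 percentile between treated strains.

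Izumo1r stood at 77.5, 96.0 and 89.7 FPKM in untreated B6 mice and at 45.5, 66.3 and 47.6 FPKM in treated B6 mice. SLE123 mice held 257, 320 and 251 FPKM without treatment and 197, 249 and 263 FPKM with it. Every SLE123 mouse was above every B6 mouse, and the treated B6 mice were the lowest of the 4 groups. The strain difference was 1.64 (SE 0.129, limma adjusted p = 0.000107) in untreated mice and 2.14 (SE 0.164, limma adjusted p = 0.000112) in treated mice on the log2 scale. In ratios of means these were 3.15 and 4.45.

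Of the 4 ubiquitin ligases, Rnf128 was higher in SLE123, Cbl was lower in untreated SLE123 mice, Itch was slightly lower in treated SLE123 mice, and Cblb was not called in either comparison on the FPKM scale. Rnf128, which encodes GRAIL, a ligase induced in anergic CD4+ T cells, was low in B6, with 0.586, 1.09 and 0.723 FPKM in untreated mice and 0.912, 1.16 and 0.67 FPKM in treated mice. SLE123 mice reached 7.37, 5.23 and 6.48 FPKM without and 5.01, 6.06 and 5.99 FPKM with treatment. The strains did not overlap, although the B6 values rest on only 26 to 54 fragments per library, against 232 to 421 in SLE123. The log2 fold change was 2.03 (SE 0.155, limma adjusted p = 9.44e-05) in untreated mice, where the means differed 7.97-fold, and 1.81 (SE 0.119, limma adjusted p = 6.74e-05) in treated mice, where they differed 6.23-fold. For a gene this low the log2(FPKM + 1) scale understates the change, and voom on the recovered fragments gave 3.03 and 2.63.

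Cbl, a ligase that targets receptor-proximal kinases, was at 37.1, 38.2 and 36.0 FPKM in untreated B6 mice and at 24.7, 7.64 and 16.3 FPKM in untreated SLE123 mice. All 3 untreated SLE123 mice were below all B6 mice, with a coefficient of variation of 52.5% among themselves against 3.0% in untreated B6. The log2 fold change was -1.28 (SE 0.346), with a limma adjusted p of 0.0217. Without replicate 2, the lowest of the untreated SLE123 mice, it was -0.85, with a limma adjusted p of 0.00939, and with 1 B6 mouse left out the adjusted p was 0.0599 to 0.0685. With no filter on low genes it was 0.0834. In treated mice Cbl was at 38.6, 29.3 and 33.1 FPKM in B6 and at 29.6, 26.7 and 27.7 FPKM in SLE123. Those groups overlapped by a single pair of mice, and the limma adjusted p was 0.0666 for a log2 fold change of -0.25. The gene was called lower on the TPM scale (-0.43), with median centring (-0.29), with voom (-0.29) and without treated B6 replicate 3 (-0.345), at adjusted p of 0.0177, 0.0451, 0.0259 and 0.0153.

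Cblb, the ligase that makes T cell activation depend on CD28, was at 27.9, 28.4 and 25.3 FPKM in untreated B6 mice and at 26.1, 19.0 and 20.0 FPKM in untreated SLE123 mice. SLE123 replicate 1 lay within the B6 values and the other two lay below them, and the log2 fold change of -0.32 (95% confidence interval -0.62 to -0.03) had a limma adjusted p of 0.0725. Without SLE123 replicate 1 it was -0.46, with a limma adjusted p of 0.00518, and with all 12 mice in one fit the adjusted p was 0.0179. In treated mice the change was -0.08 (-0.21 to 0.04). On the TPM scale it was -0.264 (limma adjusted p = 0.0303), and voom called it at -0.122 (adjusted p = 0.0497). The ratio of Cbl to Cblb in FPKM was 1.33 to 1.42 in untreated B6 and 0.402 to 0.945 in untreated SLE123, and after treatment it ran from 1.12 to 1.45 in B6 mice and from 1.13 to 1.16 in SLE123 mice.

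Itch, a HECT-type ligase that acts on JunB and PLC-gamma, was at 24.9, 24.7 and 21.7 FPKM in untreated and 25.3, 25.1 and 24.7 FPKM in treated B6 mice. SLE123 mice held 21.5, 18.5 and 21.5 FPKM without and 22.4, 22.4 and 22.7 FPKM with treatment. Each SLE123 mouse was below each B6 mouse of its own condition, by a small step. The treated strains differed by -0.15 (SE 0.0354, limma adjusted p = 0.0127), a ratio of 0.9, and the untreated strains by -0.2 (-0.42 to 0.02), with an adjusted p of 0.12. With all 12 mice in one fit these adjusted p were 0.112 and 0.0274.

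The 2 diacylglycerol kinases parted. Dgka, the more abundant in every library, was at 649, 665 and 651 FPKM in untreated B6 mice and at 382, 290 and 229 FPKM in untreated SLE123 mice. In treated mice it was at 628, 546 and 615 FPKM in B6 and at 400, 363 and 357 FPKM in SLE123. No SLE123 mouse reached any B6 mouse. The log2 fold change was -1.15 (SE 0.185, limma adjusted p = 0.00266) in untreated and -0.67 (SE 0.0707, limma adjusted p = 0.000359) in treated mice, with ratios of means of 0.459 and 0.626.

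Dgkz was at 169, 179 and 173 FPKM in untreated B6 and at 189, 157 and 174 FPKM in untreated SLE123 mice. These values overlapped fully, and the log2 fold change was -0.01 with a 95% confidence interval of -0.23 to 0.22, whose sign turned under centring on the median (0.01) and under voom (0.03). In treated mice it was at 167, 160 and 163 FPKM in B6 and at 179, 188 and 192 FPKM in SLE123, without overlap. The difference of 0.19 (SE 0.0405, limma adjusted p = 0.00784) was a ratio of 1.14. The ratio of Dgka to Dgkz was 3.42 to 3.84 over the 6 B6 mice and 1.32 to 2.24 over the 6 SLE123 mice.

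Ndrg1, which encodes a factor that accumulates in T cells stimulated without costimulation, was at 3.06, 3.73 and 2.84 FPKM in untreated B6 and at 1.46, 2.44 and 1.92 FPKM in untreated SLE123 mice. It was at 6.05, 4.54 and 5.20 FPKM in treated B6 and at 3.45, 2.11 and 2.18 FPKM in treated SLE123 mice. SLE123 mice were below B6 mice of the same condition, and all libraries had 98 or more fragments. The log2 fold change was -0.52 (SE 0.153, limma adjusted p = 0.0286) in untreated and -0.82 (SE 0.16, limma adjusted p = 0.00508) in treated mice. The first of these calls was lost in 5 of the 6 fits that left out 1 mouse, with an adjusted p of up to 0.107, and held only without untreated SLE123 replicate 2 (0.0144). With no filter on low genes it was 0.0784. Up to 556 of the 6596 exon bases of Ndrg1, 222 of 6270 for Dgkz and 105 of 4762 for Dgka are shared with genes on the opposite strand, and the strand setting of the counting is not given in the sources used here.

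Scaling bears on the strain differences. The FPKM values of a library summed to 412865 to 423541 in B6 and to 446862 to 599488 in SLE123, and rescaling each library to the same sum (TPM) moved the median log2 fold change of all genes to -0.379 between untreated and to -0.135 between treated strains. On that scale Nt5e, Izumo1r and Rnf128 were still higher in untreated SLE123 by 1.93, 1.26 and 2.13, each above the shifted median. Cblb and Itch, with -0.71 and -0.58, were then called lower at limma adjusted p of 0.0091 and 0.00807. So were 5974 of all 13115 genes, around the shifted median of -0.379. Dgkz between treated strains was at 0.01, with an adjusted p of 0.915.

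Markers of T cell states moved with these genes between the strains. The marker counts here and in the next paragraph stand beside the shares of all genes called. These were 22.8% higher and 20.1% lower between untreated strains, and 29.6% higher and 22.5% lower between treated strains. The 7 T follicular helper markers summed to 71.1 to 85.4 FPKM in untreated B6 and 338 to 398 FPKM in untreated SLE123 mice, and 7 of 7 were called higher by limma in both strain comparisons. The 8 regulatory T cell markers summed to 60.1 to 75.3 and 235 to 238 FPKM, with 6 of 8 called higher in untreated and 7 of 8 in treated mice. The 7 naive T cell markers went down, from 2120 to 2210 FPKM in untreated B6 to 792 to 1380 FPKM in untreated SLE123, with 6 of 7 called lower. Naive markers and Dgka had the same order among untreated SLE123 mice, at 1380, 1220 and 792 FPKM for the marker sum of replicates 1, 2 and 3. They also shared an order among treated SLE123 mice, and did not in either B6 group. In untreated B6 the mouse with the highest naive sum, 2210 FPKM, had the lowest Dgka, 649 FPKM. In treated B6 the highest naive sum was in replicate 5 and the highest Dgka in replicate 1. A link between the 2 was not tested. After treatment the sums were 61.1 to 74.8 and 301 to 392 FPKM for the follicular helper list, 73.1 to 87.9 and 242 to 285 FPKM for the regulatory list, and 2180 to 2290 and 1270 to 1540 FPKM for the naive list.

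Plasma cell markers, 6 of 6 higher in both comparisons, summed to 61.6 to 202 FPKM over all B6 mice and to 1070 to 5080 FPKM over all SLE123 mice. Activated or memory T cell markers summed to 237 to 251 FPKM in untreated B6 and 571 to 618 FPKM in untreated SLE123 mice, with 7 of 7 called higher, and in treated mice 6 were called higher and 1 lower. B cell markers summed to 4.22 to 5.46 and 59.2 to 232 FPKM in untreated mice, with 6 of 6 called higher, and in treated mice 2 were called higher and 3 lower. The basophil and mast cell list (5 of 5), the erythroid list (4 of 4) and the myeloid list (3 of 5) were also called higher in untreated SLE123. Of the natural killer list 1 was called higher and 2 lower there. Between treated strains 1 of 5 basophil and mast cell markers was called higher, and 0 of 4 erythroid markers were called. Of the myeloid list 4 of 5 were then called lower and 0 higher, and of the natural killer list 1 higher and 3 lower. The part of these cell types in the differences of the 9 genes was not tested. The liver list stood at 40.3 to 47.4 FPKM in B6 libraries, at 45.0 FPKM in treated SLE123 replicate 1 and at 0.0767 to 0.483 FPKM in the other 5 SLE123 libraries, with Ttr, Serpina1a, Fgb and Mup20 at 0 in all untreated SLE123 mice. Treated SLE123 replicate 1 held Nt5e, Izumo1r, Rnf128 and Dgka at 70.9, 197, 5.01 and 400 FPKM, outside the B6 values like the other SLE123 libraries. Its Cblb and Cbl, at 25.7 and 29.6 FPKM, lay within the range of the treated B6 mice. Its Ndrg1 and Itch, at 3.45 and 22.4 FPKM, lay below the treated B6 mice (4.54 to 6.05 and 24.7 to 25.3 FPKM). Its Dgkz, at 179 FPKM, lay above them (160 to 167 FPKM). The other treated SLE123 libraries lay on the same side for Ndrg1, Itch and Dgkz. Untreated B6 mice reached down to 2.84 FPKM for Ndrg1 and 21.7 FPKM for Itch, and up to 179 FPKM for Dgkz. Without that library, 7 of 9 genes were called between treated strains, with Nt5e at 2.42, Izumo1r at 2.27 and Rnf128 at 1.88 on the log2 scale. In that fit strain and liver transcripts go together, so they cannot be told apart.

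**Figure D3:**
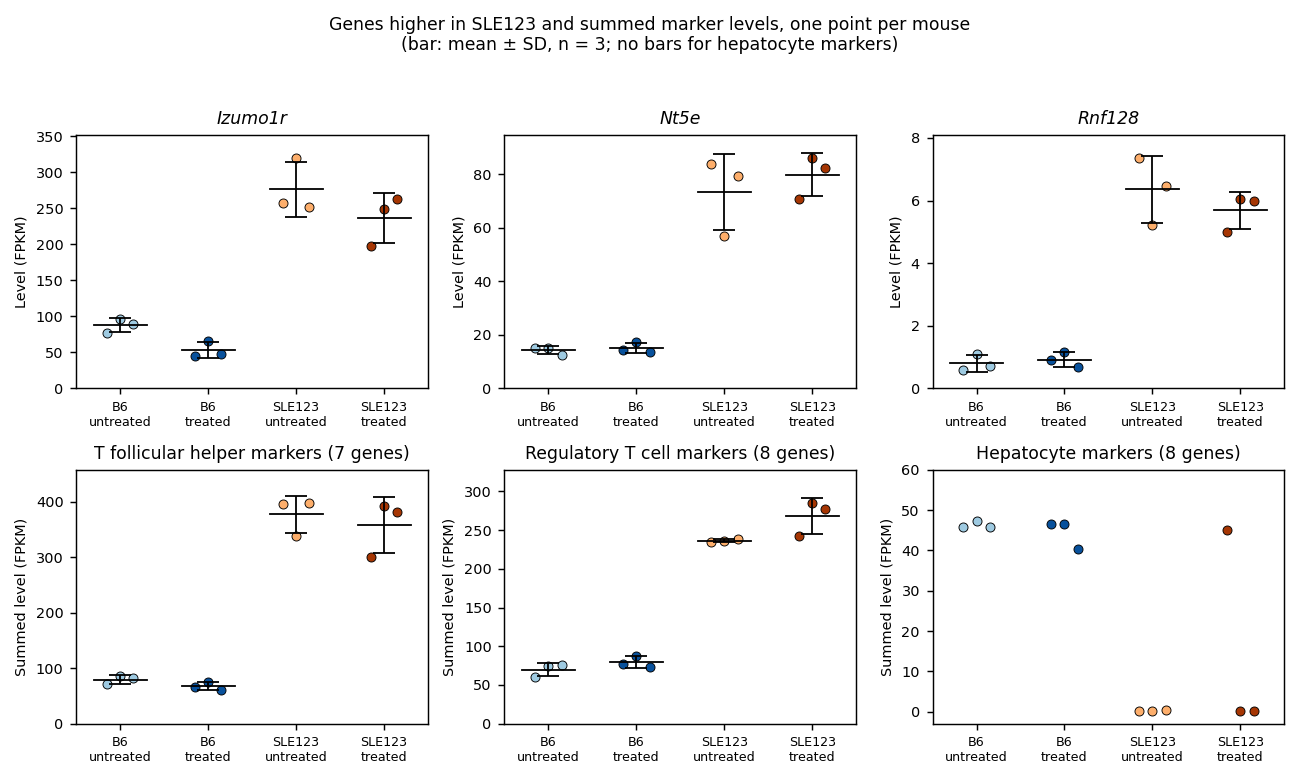
Upper panels show the levels of Izumo1r, Nt5e and Rnf128, and lower panels the summed levels of follicular helper, regulatory T cell and hepatocyte markers, all in FPKM with 1 point per mouse (bars are mean ± SD of 3 mice, left out for hepatocyte markers). The first 5 panels separate SLE123 from B6 mice, whereas in the hepatocyte panel 1 treated SLE123 mouse, at 45.0 FPKM, sits with the B6 mice.

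The second comparison asked what anti-CD45RB changed in healthy mice. In B6, Izumo1r fell and Ndrg1 rose, and the other 7 genes were not called, so that 2 of 9 were called by limma beside 14.9% of all genes (8.74% higher and 6.12% lower). Values were separate between treated and untreated mice for 4 of the 9 genes, against 38% of all genes. The median log2 fold change of the 9 genes was -0.07, beside 0 for all genes tested.

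Izumo1r fell by 0.73 on the log2 scale in B6 (SE 0.147, 95% confidence interval -1.08 to -0.38, limma adjusted p = 0.0227), from 87.7 ± 9.41 to 53.1 ± 11.4 FPKM, a ratio of 0.606. The highest treated mouse, at 66.3 FPKM, was below the lowest untreated mouse, at 77.5 FPKM. The fall stood at the 0.29 percentile of all fold changes in that comparison. Nt5e, its partner on anergic cells, was at 15.0 ± 2.0 against 14.3 ± 1.43 FPKM, a log2 fold change of 0.07 (-0.18 to 0.32), and the ratio of Izumo1r to Nt5e went from 5.12 to 7.1 in untreated mice to 3.17 to 3.83 in treated mice.

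Ndrg1 rose by 0.57 (SE 0.119, 95% confidence interval 0.29 to 0.85, limma adjusted p = 0.0246), from 3.21 ± 0.462 to 5.26 ± 0.754 FPKM, which is 1.64-fold. The lowest treated mouse, at 4.54 FPKM, was above the highest untreated mouse, at 3.73 FPKM. Both calls lay near the threshold. With 1 mouse left out, the adjusted p was 0.00569 to 0.0851 for Izumo1r and 0.0324 to 0.0778 for Ndrg1, each below 0.05 in 2 of 6 fits. The call of Izumo1r was lost without treated replicate 1 or 5 or untreated replicate 4 or 5, and that of Ndrg1 without treated replicate 1 or 5 or untreated replicate 3 or 5. With no filter on low genes the limma adjusted p was 0.0963 and 0.0835.

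The kinases were not called in B6. Dgka was lower in each treated than in each untreated mouse, at 597 ± 43.9 against 655 ± 9.24 FPKM, and its log2 fold change of -0.14 (-0.27 to -0.01) had a limma adjusted p of 0.139. Dgkz was at 163 ± 3.75 against 174 ± 4.89 FPKM, also without overlap, with -0.09 (-0.17 to -0.01) and an adjusted p of 0.118. For the ligases Cblb, Cbl, Rnf128 and Itch the log2 fold changes were -0.07 (-0.2 to 0.06), -0.14 (-0.36 to 0.07), 0.09 (-0.24 to 0.42) and 0.07 (-0.06 to 0.21), and each overlapped between the groups.

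Other cell types shifted in the same B6 libraries, where 8.74% of all genes were called higher and 6.12% lower. B cell markers summed to 4.22 to 5.46 FPKM in untreated and 25.9 to 33.3 FPKM in treated mice, with 6 of 6 tested called higher, and myeloid markers to 8.57 to 14.8 and 42.2 to 116 FPKM, with 4 of 5 called higher. Of the activated or memory T cell list 4 of 7 were called higher, with sums of 237 to 251 and 431 to 521 FPKM. Of the follicular helper list 2 of 7, Cxcr5 and Sh2d1a, were called lower, with sums of 71.1 to 85.4 and 61.1 to 74.8 FPKM that overlapped. Sums of the natural killer list went from 31.6 to 33.9 FPKM to 49.0 to 61.7 FPKM, of the basophil and mast cell list from 3.93 to 5.3 to 12.9 to 22.3 FPKM, of the erythroid list from 0.706 to 2.16 to 3.65 to 11.7 FPKM, and of the CD8 pair from 11.1 to 13.0 to 12.7 to 19.4 FPKM. Plasma cell markers summed to 61.6 to 81.9 FPKM in untreated and 98.1 to 202 FPKM in treated mice, with Mzb1 and Xbp1 called higher. Of the naive list Klf2 was called higher and Ccr7 and Tcf7 lower, and of the regulatory list Itgae was called higher and Gpr83 lower. Their part in the changes of Izumo1r and Ndrg1 was not tested.

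In SLE123 the same treatment left 0 of 9 genes called by limma, beside 0.0381% of all genes (0.0152% higher and 0.0229% lower), which is 5 genes. At an unadjusted p under 0.05 there was 1 of the 9 genes, Cbl, and 1369 of all genes, and voom on recovered fragments also called 0 of 9. The groups did not overlap for Cbl and Itch, 2 of 9, against 19.7% of all genes. The median log2 fold change was 0.13, beside 0.04 for all genes tested.

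Cbl in SLE123 was at 28.0 ± 1.49 FPKM in treated and 16.2 ± 8.52 FPKM in untreated mice, so the 3 treated mice were close together above 3 scattered untreated mice. The log2 fold change was 0.89 (SE 0.353, 95% confidence interval 0.05 to 1.72), with an unadjusted p of 0.0402 and a limma adjusted p of 0.469. Without untreated replicate 2 it was 0.46, with an adjusted p of 0.57. The naive list summed to 1270 to 1540 FPKM in treated and 792 to 1380 FPKM in untreated SLE123 mice, and immunoglobulin took 2.51% to 5.38% and 5.06% to 12.2% of fragments. Their part in the values of Cbl was not tested. For Izumo1r and Ndrg1, the genes called in B6, the values were -0.22 (-0.6 to 0.15) and 0.28 (-0.16 to 0.72). For Nt5e, Cblb, Rnf128, Itch, Dgka and Dgkz they were 0.13 (-0.24 to 0.51), 0.17 (-0.12 to 0.46), -0.13 (-0.45 to 0.18), 0.13 (-0.06 to 0.32), 0.34 (-0.12 to 0.8) and 0.1 (-0.14 to 0.35). Except for Rnf128, these intervals were wider than those in B6.

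Whether the strains responded differently was tested with the strain-by-treatment interaction, the change in SLE123 less the change in B6. Of the 9 genes 0 were called by limma, beside 3.64% of all genes (1.27% higher and 2.38% lower), which is 478 genes, and voom also called 0 of 9. At an unadjusted p under 0.05 there were 3 of the 9 genes and 3298 of all genes. The 3 were Izumo1r at 0.5 (0.01 to 1, adjusted p = 0.19), Cbl at 1.03 (0.13 to 1.92, adjusted p = 0.152) and Dgka at 0.48 (0.02 to 0.94, adjusted p = 0.182). Without untreated SLE123 replicate 1, Cblb, Cbl and Dgka were called, with 0.37, 1.39 and 0.67 and limma adjusted p of 0.0168, 0.0119 and 0.0113. That fit called 2917 of all 13115 genes. The fall of Izumo1r in B6 was not shown to differ from its value in SLE123.

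The partners of these genes, 79 genes in 7 lists, were read from the same fits. They comprise other regulators of anergy, the adenosine and folate receptor pathway, the families and adaptors of the CBL, GRAIL and ITCH ligases, the remaining diacylglycerol kinases with their RasGRP counterparts, and the NDRG family. Of 68 that could be tested, 8 were called higher and 10 lower after treatment in B6, 0 by limma in either direction in SLE123, 18 higher and 27 lower between untreated strains, and 22 higher and 25 lower between treated strains. Of all genes, 14.9% were called in B6, 42.9% between untreated and 52.1% between treated strains. In SLE123 voom also called 0 of the 68, and 7 had an unadjusted p under 0.05 by either tool. Of all 13115 genes, 1369 did so by limma and 1272 by voom. The interaction was called for 3 of the 68 by limma, Dtx1, Tob1 and Rasgrp4, beside 3.64% of all genes.

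Of the 12 other anergy regulators, 1 rose and 4 fell in B6, where 8.74% of all genes were called higher and 6.12% lower. Dtx1, an NFAT-induced ligase that promotes anergy, was at 90.2, 95.4 and 98.7 FPKM in untreated and 55.0, 56.1 and 57.3 FPKM in treated mice. The groups were far apart, and Dtx1 fell by 0.74 (SE 0.0402, limma adjusted p = 0.000363), a ratio of 0.592. Egr2, an anergy transcription factor, fell from 5.96 ± 0.264 to 3.43 ± 0.716 FPKM (-0.66, limma adjusted p = 0.016), and its relative Egr3 from 10.1 ± 1.63 to 6.13 ± 0.233 FPKM (-0.63, limma adjusted p = 0.0134). Tob1, a factor of T cell quiescence, rose from 22.8 ± 0.895 to 29.0 ± 1.58 FPKM (0.33, limma adjusted p = 0.0102). The last of the 5 was Cd5, at -0.16 with a limma adjusted p of 0.0476.

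Of the 9 genes tested among the adenosine and folate receptor partners 3 were called higher in B6 and 0 lower. Of all genes, 8.74% were called higher and 6.12% lower. Entpd1, which encodes CD39, the enzyme upstream of CD73, rose from 1.72 ± 0.245 to 2.57 ± 0.22 FPKM (0.39, limma adjusted p = 0.0389). Adk, which clears adenosine inside the cell, rose from 20.0 ± 1.39 to 28.0 ± 3.08 FPKM (0.47, limma adjusted p = 0.0164), and the receptor Adora2a from 16.9 ± 0.78 to 21.6 ± 1.89 FPKM (0.33, limma adjusted p = 0.0235).

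Around the ligases the calls in B6 went in both directions. The CBL adaptor Sh3kbp1 fell from 66.0 ± 0.636 to 55.5 ± 0.644 FPKM (-0.25, limma adjusted p = 0.00316). In the GRAIL family Rnf167 fell from 108 ± 2.09 to 89.6 ± 1.18 FPKM (-0.26, limma adjusted p = 0.00297) and Usp8, which encodes a deubiquitinating enzyme, by 0.22 (adjusted p = 0.0291), whereas Rnf130 rose by 0.36 (adjusted p = 0.0185). Sgk1, a kinase that phosphorylates NDRG1, rose by 0.21 (adjusted p = 0.0278) and Rasgrp4 by 0.38 (adjusted p = 0.0299). The plot of genes called in B6 gives all of these beside their values in SLE123.

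Many of these B6 calls depended on single mice. With each of the 6 mice left out in turn, Dtx1, Egr3, Tob1, Rnf167 and Sh3kbp1 stayed past the threshold in 6 of 6 fits. Adk stayed in 4 (lost without untreated replicate 3 or 4, limma adjusted p up to 0.0654) and Egr2 in 3 (lost without treated replicate 5 or untreated replicate 3 or 4, up to 0.0672). Adora2a stayed in 2, without treated replicate 1 or 3, and Rnf130 in 2, without treated replicate 1 or untreated replicate 5, with adjusted p of up to 0.0814 and 0.0728 in the others. Sgk1 stayed in 2, without treated replicate 3 or untreated replicate 5, Usp8 in 1, without untreated replicate 5, and Rasgrp4 in 0, with adjusted p of up to 0.0935, 0.1 and 0.0881. With no filter on low genes Egr2, Egr3, Adk, Adora2a, Rnf130, Sgk1, Usp8 and Rasgrp4 were not called, at 0.0573 to 0.0774. With all 12 mice in one fit Sh3kbp1, Rnf167, Rnf130, Sgk1 and Usp8 were not called, at 0.0854, 0.194, 0.0851, 0.333 and 0.388, and without the trend in the variance Sgk1 and Usp8 were at 0.055 and 0.0505.

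**Figure D4:**
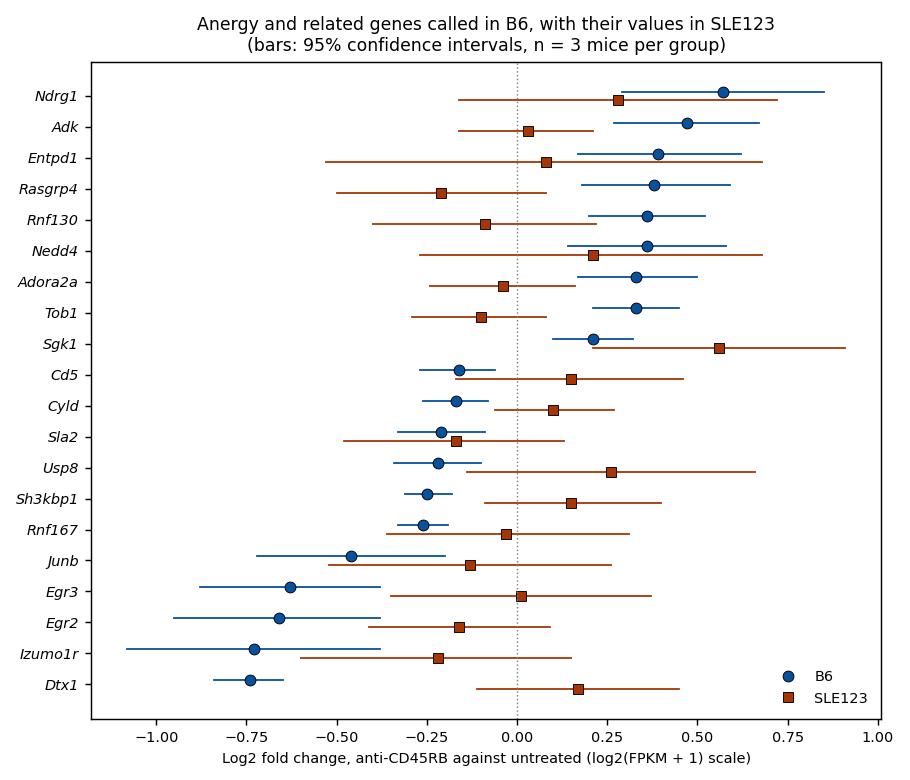
Log2 fold change after anti-CD45RB (horizontal axis, log2(FPKM + 1) scale) with 95% confidence intervals for the 2 genes of the set and the 18 related genes called in B6 (circles), beside the same genes in SLE123 (squares). Dtx1 and Izumo1r lie at -0.74 and -0.73 in B6, and at 0.17 and -0.22 in SLE123.

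Of the 12 anergy regulators, 4 were called higher and 5 lower between untreated strains, and 6 higher and 4 lower between treated strains, beside 42.9% and 52.1% of all genes called. Nrp1, a surface protein of regulatory T cells, was at 5.81 to 7.05 FPKM in untreated B6 and 47.2 to 54.9 FPKM in untreated SLE123 mice, a log2 fold change of 2.8 (limma adjusted p = 3.9e-06), and 2.47 between treated strains. Egr2 was higher by 1.5 in untreated and 2 in treated mice, with adjusted p of 2.12e-05 and 8.11e-05. Nfatc1 was higher in both comparisons (0.94 and 1.11), and Tob1 (-0.48 and -0.91), Ikzf1 (-0.71 and -0.3), Sirt1 (-0.4 and -0.35) and Traf6 (-0.47 and -0.28) were lower in both. Dtx1 was lower between untreated strains, at 94.8 ± 4.3 FPKM in B6 and 55.8 ± 8.68 FPKM in SLE123 (-0.76, limma adjusted p = 0.00222), and higher between treated strains (0.15, limma adjusted p = 0.021). The small treated difference was not recomputed on the TPM scale, which moved the median of all genes in that comparison to -0.135. Among the adenosine genes Entpd1 was higher by 2.03 and 1.71, Adora2a by 0.69 and 0.31, and the transporter Slc29a1 by 0.86 and 0.85. The call of Adora2a between untreated strains was lost on the TPM scale, with a limma adjusted p of 0.0748.

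Of 10 genes on the diacylglycerol axis, 3 were called higher and 6 lower in untreated SLE123, where 22.8% of all genes were called higher and 20.1% lower, and their median was -0.42, beside -0.03 for all genes. The 3 higher genes, Dgkg, Dgki and Rasgrp3, averaged 0.119, 0.0471 and 0.107 FPKM in untreated B6, on 2 to 9 fragments per library. These 3 reached the filter of 0.5 FPKM only through SLE123 mice, so their calls could hardly go the other way. Rasgrp4, among the lower genes, averaged 0.543 FPKM in untreated and 0.331 FPKM in treated SLE123 mice, near or below the filter. In untreated and treated B6 mice it averaged 0.993 and 1.6 FPKM. It reached the filter mainly through B6 mice, so its lower call carries the same limit. Rasgrp1, the main diacylglycerol-dependent Ras activator of T cells, was at 105 to 121 FPKM in untreated B6 and 32.5 to 50.7 FPKM in untreated SLE123 mice (-1.54, limma adjusted p = 0.000451). Dgkd was at 83.1 ± 2.22 against 43.5 ± 4.95 FPKM (-0.93, limma adjusted p = 0.000345). In treated mice Dgkd (-0.77) and Rasgrp2 (-1.09) were lower as well. In the NDRG family, Ndrg3 was at 38.4 ± 1.46 FPKM in untreated B6 and 18.9 ± 2.03 FPKM in untreated SLE123 mice (-0.99, limma adjusted p = 0.000224), and Ndrg4 at 0.159 ± 0.0514 and 2.0 ± 0.331 FPKM (1.37, limma adjusted p = 0.000215), while Sgk1 was lower by -1.13. Ndrg4 rested on 5 to 11 fragments per library in untreated B6 and also passed the filter only through SLE123 mice. Ligase genes named between treated strains were the adaptor Sla2 (-0.96) and Smurf1 (-0.59).

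The genes whose pattern over the 12 mice was most like each of the 9 were found by Pearson correlation of log2(FPKM + 1), as a description over mice that share strain, treatment and library composition. Izumo1r was closest to Egr2 (r = 0.995, Spearman's rho = 0.951), the follicular helper gene Tox2 (0.99) and Smco4 (0.989). Rnf128 was closest to Fam160a1 (0.999), Angptl2 (0.996) and Pdcd1 (0.995), which encodes the inhibitory receptor PD-1. Nt5e was closest to Nanos1, Eea1 and Padi4 (0.997 each).

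For Dgka the 3 genes were Slc12a7 (0.995), Afap1 (0.994) and Hdhd5 (0.993), and for Cbl they were Zfp871 (0.996), Inpp4b (0.995) and Gpatch2l (0.994). Cblb was closest to Fkbp15 (0.972), Lrp6 and Appl1, Itch to Usp32 (0.944), Lyst and Capn7, Dgkz to Pitpnm2 (0.974), Dpy19l4 and Bcor, and Ndrg1 to Nrm (0.974), Mvd and Lrp5.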

How the data were processed

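RNA of CD4+ T cells from 12 mice was sequenced after poly-A selection. The authors deposited FPKM values per Ensembl gene, and their processing notes name CASAVA 1.8 and STAR. The other steps and the strand setting are not given in the sources used here. Whole fragments were recovered from the steps of the FPKM values in 100% of the 23230 genes above 0 (tolerance 0.02 fragments). Since the table holds no counts, log2(FPKM + 1) was fitted with limma 3.58.1 (R 4.3.3, empirical Bayes with trend) on genes averaging 0.5 FPKM or more, with Benjamini-Hochberg adjustment over all of them and a threshold of 0.05. Treatment was compared within each strain and strain within each treatment, each on its 6 mice, and the interaction on all 12. Lists were summed and figures drawn with Python 3.11.15, pandas 2.3.3, numpy 2.4.6 and matplotlib 3.10.9, and the fits were tested on simulated data. The 9 genes, the related genes and the marker lists were chosen with earlier results of these data known. Related genes were named if called, at most 12 a comparison by adjusted p, and Cd5, Ikzf1, Sirt1, Traf6, Entpd1 in B6 and second values of a named gene were added after their values were seen. A gene that this rule names is not reported here. Other pseudocounts, filters, scalings (TPM, median centring), voom on recovered fragments, all mice in one fit, a replicate block and leaving out each mouse were tried.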

Additional observations from a re-analysis of the deposited data

Results flagged for a closer look

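For 3 of the 68 related genes tested, beside 3.64% of all genes, the treatment effect differed between the strains by the interaction term (SLE123 minus B6, limma on 12 mice). Dtx1 differed by 0.92 (SE 0.129, adjusted p = 0.00425), since it fell by 0.74 in B6 and was at 0.17 in SLE123 (adjusted p = 0.558), where treated mice held 59.6 to 64.3 FPKM and untreated mice 47.7 to 65.0 FPKM. Tob1 differed by -0.44 (SE 0.0898, adjusted p = 0.0257), with 0.33 in B6 and -0.1 in SLE123, and on the TPM scale by -0.25 with an adjusted p of 0.3, and it was past the threshold in 4 of 12 fits that left out 1 mouse (up to 0.0734). Rasgrp4 differed by -0.59 (SE 0.144, adjusted p = 0.0479), with 0.38 in B6 and -0.21 in SLE123, and was past the threshold in 2 of 12 such fits (up to 0.116), and Dtx1 was in 12 of 12. The call of Rasgrp4 was lost with a pseudocount of 0.1 (limma adjusted p = 0.06) and on the TPM scale (0.0829). Its levels in SLE123 mice were 0.283 to 0.668 FPKM, around the filter of 0.5 FPKM, which it reached mainly through B6 mice. In the interaction, 4 of 5 myeloid, 4 of 5 basophil and mast cell and 4 of 6 B cell markers were also called lower. So were 3 of 4 erythroid, 3 of 5 natural killer and 2 of 7 activated or memory T cell markers, beside 2.38% of all genes. Of the regulatory T cell list 1 of 8, Gpr83, was called higher, beside 1.27% of all genes. The part of these cell types was not tested.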

How the results depend on the processing

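Of the alternatives planned, only the replicate block between untreated strains was not run, since those groups share a single number. Deviations of same-numbered mice from their group means correlated at -0.161 to 0.266, so the numbers were not taken to pair the mice. The 2 genes called in B6 became 0 with no filter, 1 with all 12 mice in one fit, 0 with the replicate block (Izumo1r -0.561, adjusted p = 0.258; Ndrg1 0.57, adjusted p = 0.185) and 0 to 2 with 1 mouse left out. The 0 genes of the interaction became 0 to 3 with 1 mouse left out. Between untreated strains the 6 genes became 4 to 8 under other settings and 4 to 6 with 1 mouse left out, and between treated strains the 7 became 5 to 9 and 7 to 8, where Itch was lost with all 12 mice (0.112) and the block (0.165) and Dgkz on the TPM scale (0.915) and with the block (0.168). Of all genes, the 1948 called in B6 became 1134 with no filter, 815 with all 12 mice, 0 with the block (2466 at an unadjusted p under 0.05) and 675 to 1393 with 1 mouse left out. In SLE123 the 5 became 21 on the TPM scale, 3 with voom, 53 with all 12 mice and 1 to 7 with 1 mouse left out. Between strains, 5621 untreated calls became 3672 to 6469 with 1 mouse left out and 6836 treated calls became 3414 with the block. The 478 interaction calls became 34 with the block and 205 to 2917 with 1 mouse left out, 2917 of them without untreated SLE123 replicate 1. On the TPM scale the share of calls that were higher went from 53.2% to 24.3% between untreated and from 56.8% to 35.3% between treated strains. Signs turned for values near 0. With 1 mouse left out, values ran from -0.032 to 0.137 for Nt5e in B6, from -0.035 to 0.237 for Nt5e in SLE123, from -0.101 to 0.17 for its interaction, from -0.068 to 0.063 for Dgkz between untreated strains and from -0.012 to 0.117 for the interaction of Itch. Nt5e was at -0.032 in B6 without treated replicate 3 and -0.014 without untreated replicate 5, at -0.035 in SLE123 without untreated replicate 2, and in the interaction at 0 with the block, -0.004 without treated B6 replicate 5 and -0.101 without untreated SLE123 replicate 2. Rnf128 in SLE123 was at 0.035 on the TPM scale. Dgkz between untreated strains was at 0.011 with median centring, 0.031 with voom, 0.016 without untreated B6 replicate 4 and 0.063 without untreated SLE123 replicate 2, and the interaction of Itch was at -0.012 without that mouse. The cause was not tested. The related genes named by the rule were put through the same alternatives in the comparison that named them, chosen after seeing the data, and none of those values turned sign. All 12 calls named in B6 and the 3 interaction calls were lost with the block. Cd5 and Entpd1 in B6 and values of a gene in a further comparison were not recomputed. With 3 mice a group, a gene that was not called may still differ, within the interval printed for it.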
